A study of Mus musculus with 4 samples.

Results

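RNA levels of 10 genes that attach *N*-glycans to new proteins and check the folding of the resulting glycoproteins were examined in mouse R1 pluripotent cells. The genes were chosen by name. *Stt3a*, *Stt3b*, *Rpn1*, *Rpn2*, *Ddost* and *Dad1* encode subunits of the oligosaccharyltransferase (OST), *Uggt1* and *Uggt2* the folding sensors, and *Canx* and *Calr* the lectin chaperones. All 10 were among the 24421 entries of the deposited table, and all had reads in each of the 4 libraries. EpiLC induction began in serum-containing ESC medium without LIF. Medium with serum replacement, 30 ng/mL FGF2 and 0.6 µM JAK inhibitor followed. The EpiLCs were collected 72 h after induction. Their starting ESCs had LIF at 1000 U/mL together with the inhibitors PD0325901 and CHIR99021. The other libraries were ESCs given 10 µM EED226 for 48 h and ESCs given DMSO for 48 h. The paper describes the EED226 culture as containing LIF and mentions neither inhibitor for it. EED226 binds EED, a subunit of the repressive chromatin complex PRC2. All 4 came from the wild-type R1 line. Each condition had 1 library, so every difference below compares 2 libraries and has no replicate check.

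OST transfers a preassembled glycan from a lipid carrier to asparagine residues of proteins entering the endoplasmic reticulum (ER). It exists in 2 forms, each built on 1 catalytic subunit. STT3A acts at the translocon while the protein is still being made, and STT3B modifies sites that STT3A skipped. After glucose trimming, calnexin (CANX, membrane-bound) and calreticulin (CALR, soluble) hold glycoproteins that carry a single terminal glucose. UGGT enzymes put a glucose back on glycoproteins that are not yet folded, which returns them to the lectins.

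The promoters of *Canx* and *Calr* both hold an ER stress response element (ERSE), in which CCAAT and CCACG stand 9 bases apart and which NF-Y and ATF6 bind. They are shown because no other gene of the 10 had this motif in its promoter window and because the RNA of the pair differed in opposite directions, as described below. The windows run 5′ to 3′ along each gene from 250 bases before the start to 50 bases after it, with the motif in capitals, and are RefSeq sequence of GRCm38.p6. *Canx* is at chr11:50325624-50325923 (minus strand) and *Calr* at chr8:84846882-84847181 (minus strand).
Canx: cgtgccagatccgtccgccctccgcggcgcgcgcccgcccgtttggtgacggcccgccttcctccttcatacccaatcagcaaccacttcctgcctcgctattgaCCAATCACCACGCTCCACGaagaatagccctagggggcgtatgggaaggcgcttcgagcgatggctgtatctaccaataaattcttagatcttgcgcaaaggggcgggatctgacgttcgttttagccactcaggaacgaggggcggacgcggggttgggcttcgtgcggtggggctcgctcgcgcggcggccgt
Calr: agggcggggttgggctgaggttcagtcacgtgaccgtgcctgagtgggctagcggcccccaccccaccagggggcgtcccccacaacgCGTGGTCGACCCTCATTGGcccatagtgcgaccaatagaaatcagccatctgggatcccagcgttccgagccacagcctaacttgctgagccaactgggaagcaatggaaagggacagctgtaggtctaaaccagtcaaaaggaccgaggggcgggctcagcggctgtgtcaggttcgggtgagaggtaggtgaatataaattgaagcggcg
The *Canx* motif lies on the gene's own strand, from base -145 to base -127 relative to the start. The *Calr* motif lies on the opposite strand, from -162 to -144, and therefore reads as its reverse complement. Searched on both strands, the motif was found in 39 of 32851 promoter windows of this length (0.119%). A match describes the letters of the window only.

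The libraries held 34440050 reads for EpiLCs, 47622558 for ESCs, 46789589 for EED226 and 38863803 for DMSO. All 7 naïve markers were at least 1.5-fold lower in EpiLCs than in ESCs, and 3 of 4 primed markers were higher. *Otx2* was the exception, at a ratio of 1.21. *Pou5f1* (0.499) and *Sox2* (0.434), markers of both states, were lower in EpiLCs. Fibroblast markers, which could come from feeder cells, summed to 9.49 TPM in EpiLCs against 32.7 TPM in ESCs, and to 57.7 TPM with EED226 against 55.7 TPM with DMSO. *Lum* and *Postn* had no reads in EpiLCs, while of the 5 fibroblast markers at 1 TPM or more in either library, 3 were lower there and 1 (*Dcn*) was higher. The part of these cells in the ratios below was not tested. In bulk RNA, fewer cells of a type and less RNA per cell cannot be told apart.

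The 10 genes covered a wide range of levels, given as TPM, the share of reads per base of gene length scaled to a common total. *Calr* was the most abundant in every library, with *Canx* and *Rpn2* next, and *Uggt2* was the lowest. In EpiLCs the order was *Calr*, *Canx*, *Rpn2*, *Stt3a*, *Rpn1*, *Ddost*, *Stt3b*, *Uggt1*, *Dad1* and *Uggt2*. The ESC, EED226 and DMSO libraries shared 1 order, which differed in placing *Ddost* ahead of *Stt3a* and *Rpn1*. The only neighbours whose 95% counting intervals overlapped were *Stt3a* and *Rpn1* in EpiLCs. These intervals cover the error of counting reads and not the spread between cultures.

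**Figure D1:**
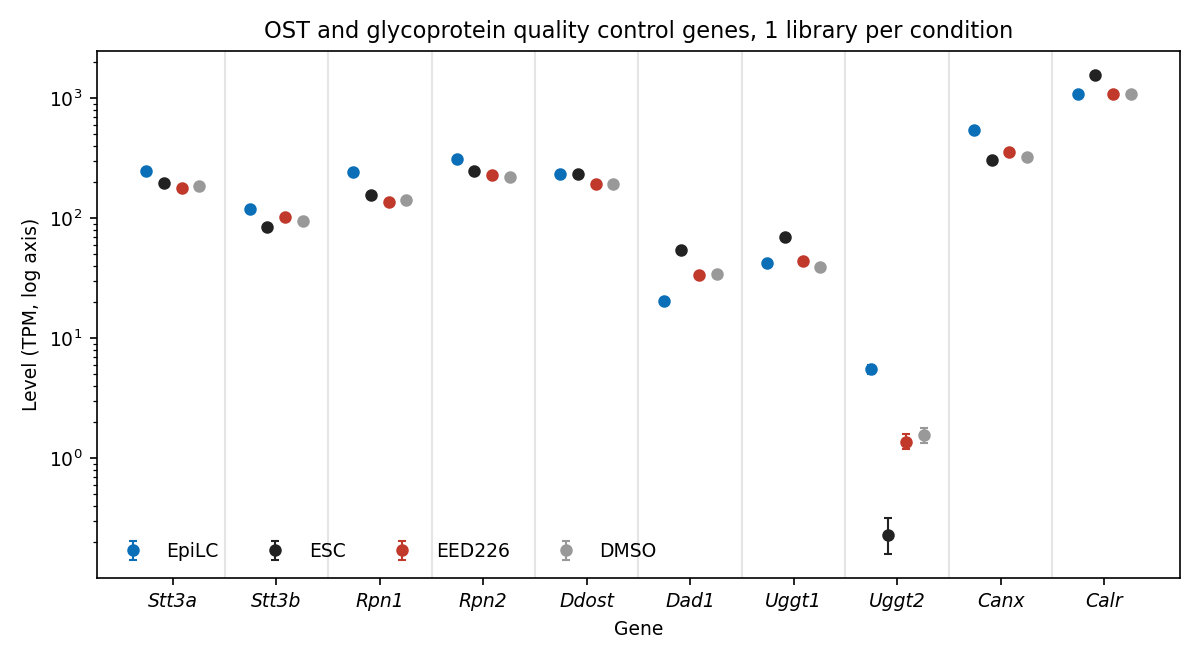
Level of each of the 10 genes (TPM, log axis) in the EpiLC, ESC, EED226 and DMSO libraries, with 95% counting intervals that are mostly smaller than the points. *Uggt2* spans 0.228 to 5.5 TPM, while *Ddost* stays between 192 and 232 TPM.

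In the transition to EpiLCs, *Uggt2*, *Canx* and *Rpn1* were at least 1.5-fold higher and *Dad1* and *Uggt1* at least 1.5-fold lower than in ESCs. The limit was applied to TPM after adding 0.1. The 3 higher genes stand beside a background of 40.6% of 13535 genes with at least 1 TPM in either library, and the 2 lower ones beside 19.2%. In either direction it was 5 of 10 genes beside 59.8%. The median log2 ratio of the 10 genes was 0.32, and that of all 13535 genes was 0.33. The medians were thus nearly equal.

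The median gene at 1 TPM or more in both libraries lay 0.23 above 0 on the log2 scale. Taken relative to it, the split was 2 higher (*Uggt2* and *Canx*) and 3 lower (*Dad1*, *Uggt1* and *Calr*), with a median of 0.09. On the same scale the background was 33.5% higher and 25.4% lower.

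**Figure D2:**
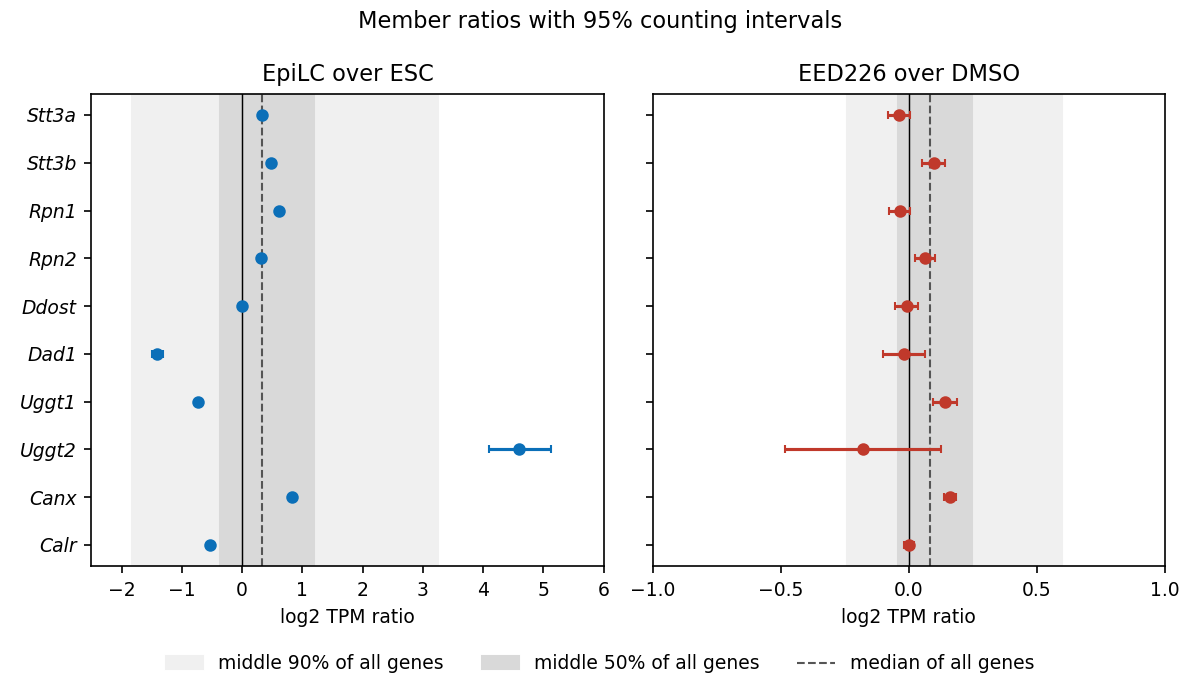
log2 TPM ratio of each gene with its 95% counting interval, for EpiLCs over ESCs (left) and EED226 over DMSO (right, a narrower axis). Bands show the middle ranges of all genes, for which 0.1 TPM was added before the ratio. The dashed lines mark the median of all genes, 0.33 and 0.08. In EpiLCs *Uggt2* lies beyond the middle 90% of genes, and with EED226 no gene of the 10 does.

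The catalytic subunits differed little. *Stt3a*, on chromosome 9 from 36729344 to 36767679 of GRCm38, was at 248 TPM in EpiLCs against 198 TPM in ESCs, and at 178 TPM with EED226 against 183 TPM with DMSO. Its EpiLC level was the highest of the 4 and the other 3 lay close together. The EpiLC over ESC ratio was 1.26 (95% counting interval 1.22 to 1.29), or 1.07 relative to the median gene. The deposited length of *Stt3a* is 2697 bases and its longest coding transcript has 5867. On that transcript its levels would be 114 TPM in EpiLCs and 90.8 TPM in ESCs, below those of *Rpn1*, *Rpn2* and *Ddost*.

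*Stt3b*, on the same chromosome from 115242581 to 115310421, was at 118 TPM in EpiLCs against 84.5 TPM in ESCs, and at 102 TPM with EED226 against 95.2 TPM with DMSO. The ratio was 1.40 (1.35 to 1.44) in EpiLCs over ESCs and 1.07 (1.04 to 1.1) in EED226 over DMSO. In TPM, *Stt3b* thus had its lowest level in ESCs, unlike *Stt3a*, whose levels with EED226 and DMSO were lower than in ESCs. Relative to the median gene, *Stt3b* was at 1.19 in EpiLCs over ESCs and 1.01 in DMSO over ESCs. With the trend along gene length described below removed, these ratios were 1.04 and 0.928.

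*Stt3b* made up 32.2% of the summed STT3 TPM in EpiLCs against 30.0% in ESCs, and 36.4% with EED226 against 34.2% with DMSO. With the longest coding transcript as the length of *Stt3a*, the shares would be 50.8% in EpiLCs against 48.2% in ESCs, and 55.4% with EED226 against 53.1% with DMSO. The ratio between libraries does not change with that length. The odds of *Stt3b* relative to *Stt3a* were 1.11 times as high in EpiLCs as in ESCs (1.07 to 1.16) and 1.1 times as high with EED226 as with DMSO (1.05 to 1.15). The first of these turned to 0.932 when the trend along gene length described below was removed. The second became 1.05. Both used the trend at the deposited length of *Stt3a*. At its longest coding transcript the trend is higher, so both odds would be higher, and those values were not computed.

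Among the subunits common to both OST forms, *Rpn1* and *Dad1* went apart. *Rpn1* encodes ribophorin I, a large subunit that binds some substrates. It was at 241 TPM in EpiLCs against 157 TPM in ESCs, and at 137 TPM with EED226 against 140 TPM with DMSO. Only the EpiLC level stood out. The ratio of 1.54 (1.5 to 1.57) passed the limit, but it was 1.31 relative to the median gene. The gene lies on chromosome 6 from 88084482 to 88105304.

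*Dad1*, first known as a defender against cell death, encodes a small subunit of the complex. It was at 20.3 TPM in EpiLCs (1155 reads) against 53.7 TPM in ESCs (4719 reads), and at 33.5 TPM with EED226 against 33.9 TPM with DMSO. The EpiLC level was the lowest and the ESC level the highest. The EpiLC over ESC ratio was 0.377 (0.354 to 0.402), the lowest among the 10 genes. *Dad1* lies on chromosome 14 from 54235479 to 54254104. The deposited length of this gene is 3735 bases, and its annotated coding transcripts have 878 and 3491 bases. On the shorter one its levels would be 86.2 TPM in EpiLCs and 228 TPM in ESCs, with the same ratio. In EpiLCs it would still be the lowest of the 6 OST genes, whereas in the other libraries it would rank above *Stt3b*.

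*Rpn2* (ribophorin II, chromosome 2 from 157279017 to 157326319) was at 309 TPM in EpiLCs against 249 TPM in ESCs, and at 229 TPM with EED226 against 219 TPM with DMSO. *Ddost* (the OST48 subunit, chromosome 4 from 138304730 to 138312628) was at 232 TPM in both EpiLCs and ESCs, at 192 TPM with EED226 and at 193 TPM with DMSO. The EpiLC over ESC ratio was 1.24 for *Rpn2* (1.21 to 1.27) and 0.997 for *Ddost* (0.968 to 1.03). Relative to the median gene, *Ddost* was at 0.850. Without *Dad1*, the highest of the other 5 OST genes was 2.62 times the lowest in EpiLCs and 2.94 times in ESCs.

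The folding sensors showed the widest contrast. UGGT1 is the main glucosyltransferase of the cycle, and UGGT2 is its less studied paralog. *Uggt2*, on chromosome 14 from 118985039 to 119099430, was at 5.5 TPM in EpiLCs (547 reads) against 0.228 TPM in ESCs (35 reads), and at 1.37 TPM with EED226 (183 reads) against 1.55 TPM with DMSO (178 reads). Its ESC level was the lowest of the 4, and the EED226 and DMSO levels lay between ESCs and EpiLCs. The EpiLC over ESC ratio was 24.1 (17.1 to 35.0). It was 17.1 after adding 0.1 TPM, and 14.5 on that scale relative to the median gene.

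*Uggt1*, on chromosome 1 from 36140027 to 36244720, went the other way. It was at 42.3 TPM in EpiLCs against 70.0 TPM in ESCs, and at 43.5 TPM with EED226 against 39.4 TPM with DMSO. The ESC level was the highest and the other 3 lay close together. The ratio was 0.605 (0.587 to 0.623) in EpiLCs over ESCs.

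*Uggt1* remained the main source of UGGT RNA in all 4 libraries. *Uggt2* contributed 11.5% of the summed TPM of the pair in EpiLCs against 0.325% in ESCs, and 3.05% with EED226 against 3.79% with DMSO. The odds of *Uggt2* relative to *Uggt1* were 39.8 times as high in EpiLCs as in ESCs (28.3 to 57.9), and 0.800 times as high with EED226 as with DMSO (0.646 to 0.992). The sum of both was lower, at 47.8 TPM in EpiLCs against 70.2 TPM in ESCs.

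Among 12836 genes that averaged 1 TPM or more, the 3 whose log2 levels over the 4 libraries, centred on each gene's mean, lay nearest to *Uggt2* were *Mfhas1*, *Bzrap1* and *Lrrc3*. Their Euclidean distances were 0.198, 0.229 and 0.25. *Mfhas1* was at 5.85 TPM in EpiLCs against 0.285 TPM in ESCs, and at 1.49 TPM with EED226 against 1.5 TPM with DMSO. With 4 libraries, such likeness is a description only.

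**Figure D3:**
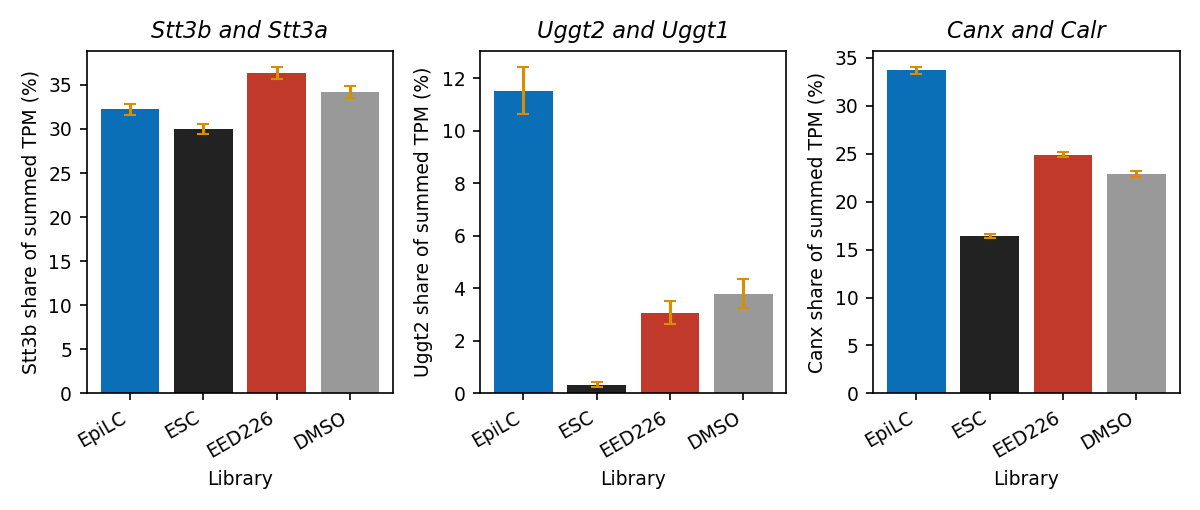
Share of the first gene in the summed TPM of each pair (%), by library, with 95% counting intervals. From left to right the panels show *Stt3b* with *Stt3a* (on deposited lengths; the EpiLC share would be 50.8% on the longest *Stt3a* transcript), *Uggt2* with *Uggt1* and *Canx* with *Calr*. The *Uggt2* share is 11.5% in EpiLCs against 0.325% in ESCs, and the *Canx* share is 33.7% in EpiLCs against 16.4% in ESCs.

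Of the lectin chaperones, the membrane-bound form had a larger share of the pair in EpiLCs than in ESCs, while the soluble form was the more abundant in all 4 libraries. *Canx*, on chromosome 11 from 50293961 to 50325673, was at 544 TPM in EpiLCs against 305 TPM in ESCs, and at 358 TPM with EED226 against 319 TPM with DMSO. Its EpiLC level was well above the other 3. The ratio was 1.79 (1.76 to 1.81) in EpiLCs over ESCs and 1.12 (1.1 to 1.14) in EED226 over DMSO.

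*Calr*, on chromosome 8 from 84841850 to 84846934, was at 1071 TPM in EpiLCs against 1553 TPM in ESCs, and at 1078 TPM with EED226 against 1077 TPM with DMSO. Here the ESC library stood apart, and the remaining 3 were nearly equal. The EpiLC over ESC ratio of 0.689 (0.680 to 0.699) did not reach the limit, whereas the ratio of 0.588 relative to the median gene did.

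*Canx* made up 33.7% of the summed TPM of the pair in EpiLCs against 16.4% in ESCs, and 24.9% with EED226 against 22.9% with DMSO. The odds of *Canx* relative to *Calr* were 2.59 times as high in EpiLCs as in ESCs (2.54 to 2.64) and 1.12 times as high with EED226 as with DMSO (1.09 to 1.14). This pair was compared after its values were seen.

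Ratios in this comparison also followed gene length. With genes put into 10 groups of equal size by length, the median log2 ratio of EpiLCs over ESCs ran from -0.19 at a median of 767 bases to 0.86 at 7637 bases. With that trend removed, the 10 genes gave 1 higher (*Uggt2*, ratio 10.3) and 3 lower (*Dad1* at 0.299, *Uggt1* at 0.305 and *Calr* at 0.666). The share of all genes past the limit on this scale was not computed, so the split has no background beside it. *Canx* was then at 1.31 and *Rpn1* at 1.23, both short of the limit. On deposited lengths, *Uggt1*, with the longest gene length of the 10, lay furthest below the trend after *Dad1*. At the shorter coding transcript of *Dad1* the trend is lower, so *Dad1* would lie nearer to it. That value was not computed, so the order of these genes depends on the length used. In EED226 over DMSO the medians ran from -0.036 to 0.24. The cause of the trend was not tested.

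**Figure D4:**
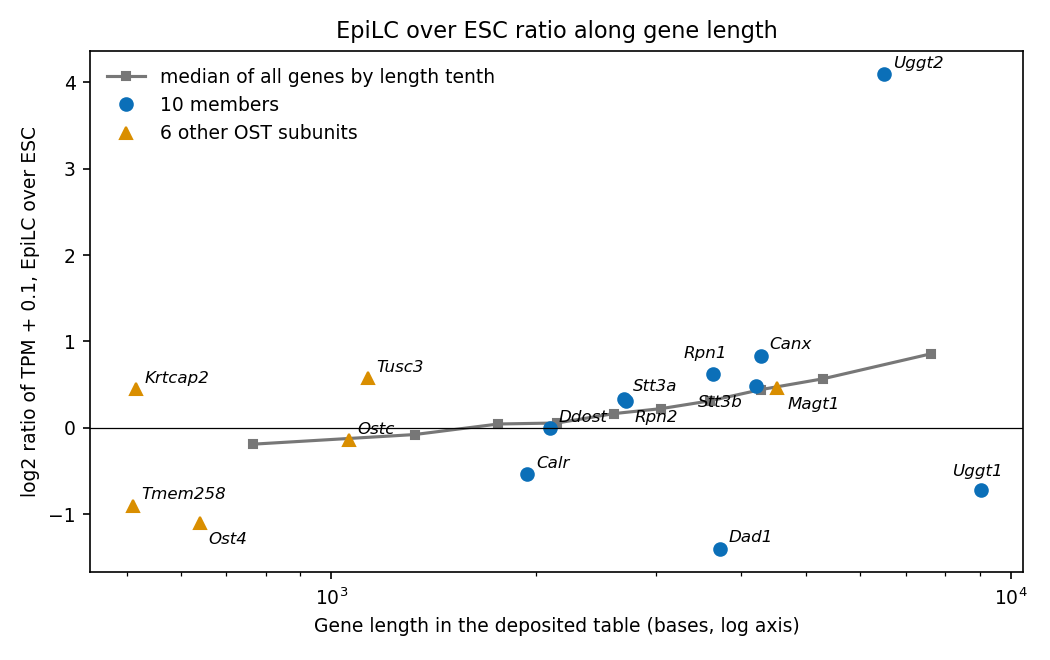
log2 ratio of EpiLCs over ESCs (TPM + 0.1) against the gene length in the deposited table (bases, log axis). The line joins medians of 10 groups of genes by length, from -0.19 to 0.86. *Stt3a*, *Stt3b*, *Rpn2* and *Ddost* lie close to it, *Uggt2* lies far above it, and *Dad1* and *Uggt1* lie below it.

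With EED226, the 10 genes were near their DMSO levels. No gene of the 10 passed the 1.5-fold limit in either direction, beside a background of 5.26% of 12763 genes higher and 1.02% lower, or 6.28% in both directions. Their ratios ran between 0.883 for *Uggt2* (0.715 to 1.09) and 1.12 for *Canx*. The median log2 ratio was -0.0033, and that of all genes was 0.08. *Uggt1* was at a ratio of 1.1 (1.07 to 1.14). *Stt3a*, *Rpn1*, *Ddost*, *Dad1*, *Uggt2* and *Calr* had intervals that included 1, while those of *Stt3b*, *Rpn2*, *Uggt1* and *Canx* lay above it. These small excesses depended on the scale. Relative to the median gene, *Stt3b* was at 1.01, *Rpn2* at 0.989, *Uggt1* at 1.04 and *Canx* at 1.06. With the length trend removed, they were at 0.982, 1.001, 0.915 and 1.03, in the same order. The interval of *Uggt2* is the widest because of its few reads.

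The DMSO and ESC libraries were both ESCs. By the methods, the ESC sample was seeded the day before collection with LIF and the inhibitors PD0325901 and CHIR99021. For the EED226 culture the methods mention LIF and neither inhibitor, and they do not describe the medium of the DMSO culture. The DMSO and ESC libraries are therefore not treated as replicates, and their difference is given as a description. Of the naïve markers, 5 of 7 were at least 1.5-fold lower with DMSO than in ESCs (*Tbx3* at 0.0556, *Klf4* at 0.277 and *Nanog* at 0.303 among them), and 4 of 4 primed markers were higher (*Fgf5* at 58.4 and *Dnmt3b* at 3.51 among them). Their part in the values below was not tested. *Uggt2* was 6.79-fold higher with DMSO than in ESCs (4.71 to 10.1), and *Dad1* (0.632) and *Uggt1* (0.563) were lower. The *Uggt2* ratio was 5.03 after adding 0.1 TPM and 4.52 on that scale relative to the median gene. This comparison also followed gene length, with median log2 ratios from -0.13 to 0.53. With that trend removed, *Uggt2* was at 3.63 and *Uggt1* at 0.375. Without centring or removal of the trend, the 1 higher and 2 lower stand beside 28.2% and 15.1% of 12945 genes, or 43.3% in both directions. Relative to the median gene, 1 was higher and 3 were lower, *Calr* being the third of these, beside 22.5% and 19.2% of all genes. *Calr* was at 0.694 in DMSO over ESCs, close to the 0.689 of EpiLCs over ESCs, and both ratios share the ESC library. For *Stt3b*, *Dad1*, *Uggt2*, *Canx* and *Calr*, the DMSO level in TPM lay between the EpiLC and ESC levels. For *Calr* the counting intervals of DMSO (1066 to 1088 TPM) and EpiLCs (1059 to 1082 TPM) overlapped. With the length trend removed, *Stt3b* (0.928) and *Canx* (0.861) were below 1 in DMSO over ESCs.

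Other OST subunits were read from a list of 6. *Ost4* and *Tmem258*, which encode very small subunits, were lower in EpiLCs, *Ost4* with 129 TPM against 277 TPM in ESCs (ratio 0.466, 0.437 to 0.496) and *Tmem258* with 154 TPM against 288 TPM in ESCs (0.534, 0.5 to 0.571). Of the annotated exon bases of *Ost4*, 53.2% overlap *Agbl5* on the opposite strand, so its reads are uncertain. Together with *Dad1*, 3 of all 12 OST subunits were lower and 1, *Rpn1*, was higher, beside 19.2% and 40.6% of all genes. Relative to the median gene 3 were lower and 0 higher, beside 25.4% and 33.5%. With the length trend removed 3 were lower and 2 higher (*Krtcap2* and *Tusc3*), and no background was computed on that scale.

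The STT3A-specific subunits *Krtcap2* and *Ostc* did not pass the limit. *Krtcap2* was at 191 TPM in EpiLCs against 140 TPM in ESCs, and *Ostc* at 207 TPM in EpiLCs against 228 TPM in ESCs. The STT3B-specific oxidoreductases *Tusc3* and *Magt1* were at ratios of 1.49 (1.38 to 1.62) and 1.38 (1.28 to 1.49), also within the limit. With the length trend removed, *Krtcap2* (1.65, with 15.7% of its exon bases overlapped by *Trim46* on the opposite strand) and *Tusc3* (1.61) passed it. *Magt1* relative to *Tusc3* had odds of 0.923 in EpiLCs over ESCs (0.826 to 1.03), an interval that includes 1. *Krtcap2* relative to *Ostc* had odds of 1.51 (1.39 to 1.64). With EED226, 0 of the 6 passed, beside 6.28% of all genes in both directions. The largest ratio was 1.26 for *Magt1* (1.16 to 1.37).

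Around OST, the translocon list held 3 higher and 3 lower genes of 11 in EpiLCs. It held 2 and 3 relative to the median gene and 1 and 3 with the length trend removed. For this list and those below, the background was 40.6% of all genes higher and 19.2% lower in EpiLCs. Relative to the median gene it was 33.5% and 25.4%, and in EED226 over DMSO 5.26% and 1.02%. It was not computed with the length trend removed. *Ssr2*, a subunit of the translocon-associated protein complex, was at 259 TPM in EpiLCs against 837 TPM in ESCs (ratio 0.310). The small SEC61 subunits *Sec61b* (0.439) and *Sec61g* (0.397, from 53 reads in EpiLCs against 206 in ESCs) were lower as well. *Sec61a2*, a channel-forming SEC61 alpha isoform, was higher, at 63.3 TPM in EpiLCs against 26.3 TPM in ESCs (2.41), although 19.9% of its exon bases overlap *Nudt5* on the opposite strand. In EED226 over DMSO, *Sec61g* was the only translocon gene past the limit (0.581, 0.454 to 0.743, an interval that spans the limit).

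Among 9 partners of the calnexin cycle, 2 were higher in EpiLCs and none was lower. Relative to the median gene the split was 1 higher and 3 lower (*Pdia3*, *Ppib* and *Mlec*), and with the length trend removed it was 2 and 2. Both higher genes encode relatives of the lectins that are best known from the testis. *Clgn* (calmegin) was at 11.6 TPM in EpiLCs against 6.79 TPM in ESCs (1.71, or 1.45 relative to the median gene), and *Calr3* at 5.28 TPM in EpiLCs against 2.14 TPM in ESCs (2.46, 1.89 to 3.22). They added little to the 1615 TPM of *Canx* and *Calr* in EpiLCs. *Pdia3*, a thiol oxidoreductase that works with the lectins, was at a ratio of 0.742, or 0.633 relative to the median gene.

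Of 14 genes for mannose trimming and ER-associated degradation, 2 were higher and 2 were lower in EpiLCs. *Erlec1*, a lectin of the degradation route, was at 26.2 TPM in EpiLCs against 9.29 TPM in ESCs (2.82), and *Edem1*, which acts in mannose trimming, was at a ratio of 1.73. *Edem1* did not pass relative to the median gene (1.47) or with the length trend removed (1.102), and the list then split 1 higher to 3 lower and 1 higher to 4 lower. The lower pair were F-box proteins that recognise high-mannose glycans in the cytosol. *Fbxo2* was at 3.56 TPM in EpiLCs against 28.7 TPM in ESCs (0.124, 0.0952 to 0.159), and *Fbxo6* was at a ratio of 0.610. *Fbxo2* was also the only one of the 67 pathway genes at least 1.5-fold higher with EED226, at 26.1 TPM against 16.3 TPM with DMSO (1.6, 1.40 to 1.82, an interval that spans the limit).

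*Ngly1*, the cytosolic enzyme that cuts *N*-glycans from misfolded proteins, was the only one of 3 genes for free oligosaccharides past the limit. It was at 8.02 TPM in EpiLCs against 5.02 TPM in ESCs (1.6, 1.37 to 1.86). It did not pass relative to the median gene (1.35) or with the length trend removed (1.38), and its EED226 over DMSO ratio was 1.49 (1.28 to 1.73). *Lman2l*, a lectin that takes part in ER exit, was the only one of 4 cargo receptors past the limit, at 37.1 TPM in EpiLCs against 10.1 TPM in ESCs (3.67). Relative to the median gene, the free oligosaccharide genes split 0 higher to 0 lower and the cargo receptors 1 to 0. With the length trend removed, these splits were 0 to 1 and 1 to 1.

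ER chaperones and genes of the unfolded protein response split 5 higher to 4 lower of 20, or 5 to 6 when centred on the median gene and likewise after removal of the length trend. *Ddit3* (CHOP, a transcription factor induced by stress) was at 135 TPM in EpiLCs against 12.4 TPM in ESCs, a ratio of 10.8 (9.48 to 12.4). *Trib3*, a CHOP target, was at 5.32 and *Herpud1*, a degradation cofactor, at 3.02. *Sdf2l1*, a cochaperone of BiP, was at 16.1 TPM in EpiLCs against 64.5 TPM in ESCs (0.25). With EED226, 0 of the 20 passed.

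Over all 67 pathway genes, 14 were higher and 11 lower in EpiLCs, beside 40.6% and 19.2% of all genes. Relative to the median gene this was 10 and 17, beside 33.5% and 25.4%. With the length trend removed it was 12 and 19, without a computed background. With EED226 it was 1 and 1, beside 5.26% and 1.02%.

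**Figure D5:**
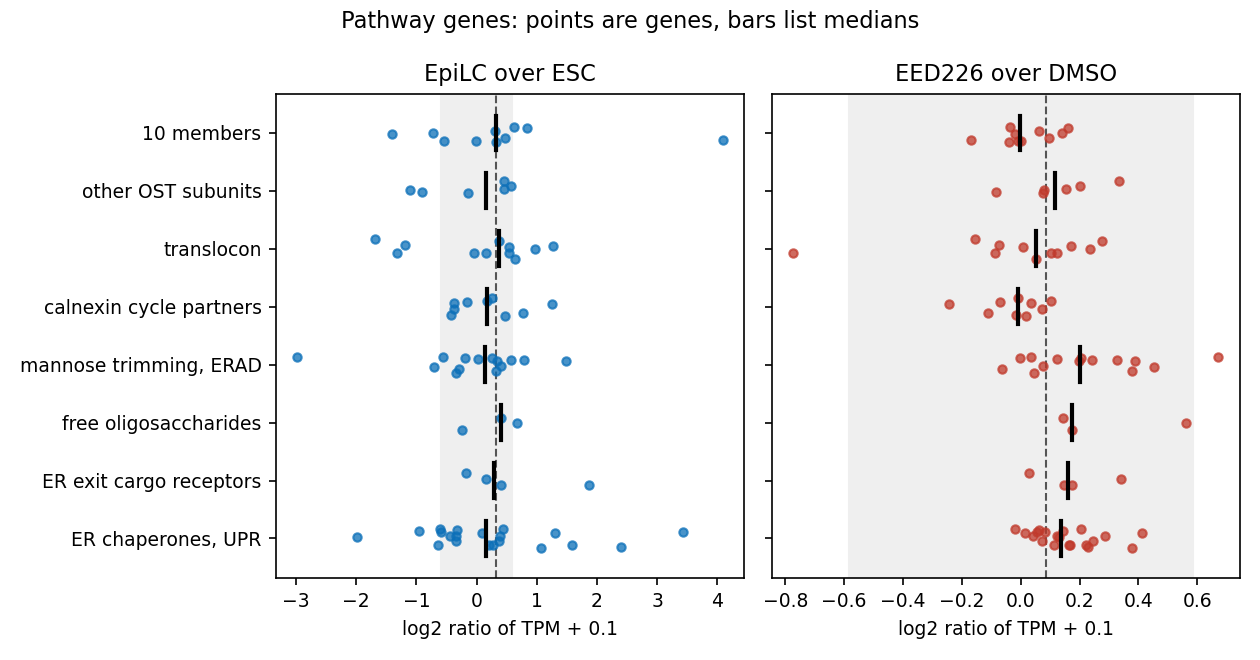
log2 ratio of TPM + 0.1 for the 10 genes and 7 pathway lists, EpiLCs over ESCs on the left and EED226 over DMSO on the right. Points are genes, short bars list medians, the grey band marks ratios within 1.5-fold and the dashed line the median of all genes. The lists spread to both sides of the band in EpiLCs, while with EED226 only *Fbxo2* and *Sec61g* lie outside it.

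The ERSE motif of the *Canx* and *Calr* promoters also occurred in those of 7 pathway genes, *Hspa5*, *Hsp90b1*, *Pdia6*, *Creld2*, *Dnajc3*, *Derl3* and *Syvn1*, which were named for the motif after values had been seen. Some pathway genes had no promoter window and were not searched. A window was available for 17 of 20 genes of the ER chaperone list and 8 of 11 translocon genes, for example. The 9 genes did not share a direction in EpiLCs. *Canx* and *Dnajc3* (2.49) were higher and *Pdia6* (0.641) was lower, beside 40.6% and 19.2% of all genes, and 6 lay within the limit. Relative to the median gene, *Calr* (0.588) and *Derl3* (0.58) were lower too. *Hspa5*, which encodes the chaperone BiP, was at 690 TPM in EpiLCs against 532 TPM in ESCs (1.3). With EED226, none of the 9 passed the limit and their ratios lay between 1.00 and 1.33.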

How the data were processed

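RNA-seq of 4 cultures (EpiLC, ESC, EED226, DMSO) was analysed, with 1 library per condition. Libraries were stranded mRNA libraries. Per the submitters' processing notes, featureCounts 1.6.2 and STAR 2.6.0a were used, along with Bowtie2 2.2.4 and bcl2fastq 2.20, on build mm10. The sources used here do not give the strand setting. Genes that overlap on opposite strands may share reads. Among the 10 genes, the largest such overlap with any single gene was 5.46% of the exon bases, for *Rpn2*. Overlaps with more than 1 gene were not added up.

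The authors deposited 1 table with gene lengths, a count of reads per gene, a signal of reads per base of length, and TPM scaled per library. The design had assumed TPM alone and was kept when counts were found.

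Ratios of TPM were computed with exact 95% intervals from the split of each gene's reads, and odds of gene pairs with exact conditional intervals. Intervals cover counting error only. Differences were described at 1.5-fold on TPM + 0.1, over genes with at least 1 TPM in either library. No condition has replicates, so no test was made. The EpiLC and DMSO comparisons with ESCs share the ESC library.

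The 10 genes and all lists were chosen with earlier results of these data known. The text names the 10 genes, the other OST subunits, up to 4 genes per pathway list with the largest log2 ratio past 1.5-fold, and the 3 genes nearest to *Uggt2* in pattern. *Pdia3*, *Ppib*, *Mlec*, *P4hb* and the pathway genes with the ERSE motif were named outside this rule, after values had been seen. Of 67 pathway genes, 66 matched by symbol and 1 by a RefSeq synonym. Of the table, 2 entries that share 1 symbol were left out. Gene positions and exon overlaps are from GENCODE for GRCm38, and promoters from RefSeq. Calculations were tested on simulated data and used scipy 1.17.1, pandas 2.3.3 and numpy 2.4.6 under Python 3.11.15, with plots from matplotlib 3.10.9. Alternatives covered the pseudocount, the limit, the filter, scaling and gene length.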

Additional observations from a re-analysis of the deposited data

How the results depend on the processing

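No paired analysis was possible because each condition has 1 library, and for the same reason no library could be left out. Of 120 alternative values for single genes, 9 changed whether a gene passed the 1.5-fold limit. Of these, 7 were in EpiLCs over ESCs (*Rpn1*, *Canx* and *Calr*) and 2 in DMSO over ESCs (*Calr*). Only values of a ratio past 1.5-fold could be scored as reversed, and 0 were. Ratios within the limit were not scored, and some changed side of 1. *Uggt1* in EED226 over DMSO was at 1.1, and at 0.915 with the length trend removed. In EpiLCs over ESCs, the count of genes past the limit was 2 at 2-fold and 9 at limits of 1.1 and 0.9. In EED226 over DMSO it was 3 at limits of 1.1 and 0.9, and in DMSO over ESCs it was 1 at 2-fold. The shares of all genes past these other limits were not computed. The median log2 ratio of the 10 genes in EpiLCs over ESCs was 0.089 relative to the median gene, 0.091 with the length trend removed and 0.13 with upper quartile scaling. In EED226 over DMSO it was -0.083, -0.075 and -0.068 under the same alternatives. The odds of *Stt3b* relative to *Stt3a* in EpiLCs over ESCs were 0.932 with the length trend removed at the deposited length of *Stt3a*. The odds of *Uggt2* relative to *Uggt1* in EpiLCs over ESCs were 28.2 with 0.1 TPM added and 8.67 with 1 TPM added, since *Uggt2* had 35 reads in ESCs. Those of *Canx* relative to *Calr*, an alternative added after the data were seen, were 1.97 for EpiLCs and 1.05 for EED226 with the length trend removed. Without the filter on low values the background past 1.5-fold was 45.1% for EpiLCs and 9.6% for EED226. Among pathway genes past the limit, counting intervals span it for *Clgn*, *Ngly1* and *P4hb* in EpiLCs. They also span it for both pathway genes called with EED226, *Fbxo2* and *Sec61g*. Some genes within the limit in EpiLCs, such as *Tusc3* and *Derl3*, have intervals that span it too. The spread between cultures is unknown for every gene.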
